A study of Mus musculus with 17 samples.

Results

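Autophagy and lysosome regulators were followed across mouse livers as 10 genes chosen by symbol: Ulk1, Becn1, Map1lc3b, Gabarapl1, Atg5, Atg7, Sqstm1, Lamp1, Tfeb and Foxo3. The series' table of log2 ratios held 16 probes with these symbols among 41174 non-control probes, and 14 of the 16, with at least 1 for each of the 10 genes, passed the filter on dim signals that 34664 probes passed. The other 2, the second probes of Becn1 and Foxo3, were well above background on 0 of the 17 arrays and were not tested.

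All 17 livers came from male mice whose strain is C57BL/6N in the labels and C57BL/6J in the methods. Mice of the chow group (n = 4) ate chow and received maltose by gavage, and mice of the 1B group (n = 4) ate chow and received a single ethanol binge of 5 g/kg. The HFD group (n = 4) was fed a high-fat diet for 3 months before the maltose gavage, and the HFD+1B group (n = 5) was fed that diet for 3 months before the ethanol gavage of 5 g/kg. By the methods, livers were taken 9 hours after gavage, and the maltose given to HFD mice matched the ethanol in calories. RNA of each whole liver (Cy5 dye) was hybridized against a reference RNA (Cy3 dye), so every level below is a log2 ratio of liver to reference and every difference is a difference of log2 ratios between groups. The study compared ethanol and maltose on both diets to see how a binge acts on a fatty liver.

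There were 5 slides, each with 3 to 4 arrays from different groups. The median background-subtracted Cy5 signal ran from 43 to 138.5 across arrays, and 74.2% to 86.1% of probes were well above background. Of 8 hepatocyte markers, 7 were tested. Of these, 0 were called for ethanol on chow, beside 4.15% of all genes. In HFD against chow 2 were lower (Apob and Tat), 28.6% of the 7 beside 10.9% of all genes. In HFD+1B against HFD 3 rose and 1 fell, 57.1% of the 7 beside 19.3% of all genes. Albumin (Alb) was called in no comparison. Ribosomal RNA probes (5 probes) stood apart in HFD livers, at mean log2 ratios from -3.80 to -2.15, against 0.22 to 0.56 in chow and -1.02 to 1.11 in HFD+1B.

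Autophagy delivers cytoplasm to the lysosome. The ULK1 kinase complex, held back by mTORC1 when nutrients are plentiful and switched on by AMPK when energy falls, starts the process, and the class III PI3-kinase complex with Beclin 1 then marks the membrane from which the autophagosome grows. ATG7 and ATG5 belong to the conjugation machinery that attaches LC3 and GABARAP proteins (the ATG8 family) to this membrane, and receptors such as p62, encoded by Sqstm1, tie cargo to them. LAMP1 is an abundant protein of the lysosomal membrane, TFEB switches on lysosomal and autophagy genes through CACGTG elements, and FOXO3 induces several autophagy genes. In liver, autophagy clears lipid droplets and damaged mitochondria, and transcript levels say nothing of the rate at which it runs.

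The probes of the members called below are shown first, 5′ to 3′, whole for 2 that read coding sequence (Gabarapl1 probe 2 and Map1lc3b probe 1) and otherwise as a stretch of 30 bases. Capitals mark the AATAAA polyadenylation signal, which both the first Ulk1 probe and the Sqstm1 probe hold.
Ulk1 probe 1: gtcatatcagtttaagaaAATAAAaattgg
Ulk1 probe 2: tacaagagttgtacaagaaagcagatctct
Gabarapl1 probe 1: caatctgtacgtctgttttgtcagcttcag
Gabarapl1 probe 2: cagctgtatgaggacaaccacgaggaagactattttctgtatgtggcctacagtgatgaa
Map1lc3b probe 1: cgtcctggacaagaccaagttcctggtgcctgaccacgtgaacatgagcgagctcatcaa
Atg5 probe 1: ccatctttccttaatgagactttcctgttt
Sqstm1 probe 1: tggtttgtaagtaacctgtAATAAAatgcc

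RefSeq promoter windows (GRCm38.p6) were found for 9 of the 10 genes, 11 windows in all, and the 250 bases before each start were searched on both strands for 4 motifs. These were the TFEB palindrome TCACGTGA, its core CACGTG (also part of the palindrome), the antioxidant response core TGACNNNGC and the FoxO site GTAAACA. The core CACGTG was found in 3 of the 11 windows, those of Atg5, Atg7 and Lamp1, against 6.02% of all 32851 windows. The other 3 motifs were found in 0 of the 11 windows, against 0.785% of all windows for the palindrome, 10.2% for the antioxidant response core and 3.17% for the FoxO site. The Lamp1 window held the core 4 times, and at least 4 copies were present in 7 of the 32851 windows. The windows of Ulk1, which rose most, of Gabarapl1, which fell, and of Lamp1 are printed with CACGTG in capitals.
Ulk1 (chr5:110810082-110810331, minus strand): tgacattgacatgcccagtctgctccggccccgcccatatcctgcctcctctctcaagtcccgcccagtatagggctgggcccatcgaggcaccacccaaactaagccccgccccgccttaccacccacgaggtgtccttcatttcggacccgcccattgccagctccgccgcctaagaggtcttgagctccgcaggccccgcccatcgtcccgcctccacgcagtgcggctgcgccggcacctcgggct
Gabarapl1 (chr6:129532942-129533191, plus strand): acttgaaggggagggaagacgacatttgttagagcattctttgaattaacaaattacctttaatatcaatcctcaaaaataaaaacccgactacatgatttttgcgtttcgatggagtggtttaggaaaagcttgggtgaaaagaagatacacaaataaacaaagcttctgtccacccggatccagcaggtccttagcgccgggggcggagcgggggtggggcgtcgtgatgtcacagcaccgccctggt
Lamp1 (chr8:13158911-13159160, plus strand): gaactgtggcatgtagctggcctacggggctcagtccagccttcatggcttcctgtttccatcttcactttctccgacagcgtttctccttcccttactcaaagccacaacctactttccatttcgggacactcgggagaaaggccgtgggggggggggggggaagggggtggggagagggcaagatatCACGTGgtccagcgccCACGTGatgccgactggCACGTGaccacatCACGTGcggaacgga
A match is only a match of letters, and regions outside these windows were not searched.

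Ulk1 was higher after ethanol on both diets, Gabarapl1 was lower after ethanol on chow, and Map1lc3b and Sqstm1 were higher in HFD+1B than in chow, while Becn1, Atg7, Tfeb, Foxo3 and Lamp1 passed the test in none of the 6 comparisons. A probe was called where its adjusted p reached 0.05. The members were chosen with earlier results of these data known, so shares beside those of all probes or genes are a description only. Ethanol on chow (1B against chow) called 4 of the 14 member probes, beside 3.63% of all probes, 2 of them higher (1.87% of all probes) and 2 lower (1.76%). Ethanol on HFD (HFD+1B against HFD) called 4, beside 17.9% of all probes, with 3 higher (9.83%) and 1 lower (8.06%). HFD+1B against chow called 4, beside 14.8%, all of them higher (7.87%, with 6.89% lower). HFD+1B against 1B called both Gabarapl1 probes as higher, beside 9.98% of all probes (5.29% higher, 4.68% lower). For HFD against chow limma called 0 member probes, beside 9.89% of all probes (3.95% higher, 5.94% lower), and 2 of the 10 genes had an unadjusted p of 0.05 or less. The test of the difference between the ethanol effects on HFD and on chow called 1 probe, higher, beside 4.02% (2.4% higher, 1.62% lower). Read by brightest probe, 2 of the 10 genes were called for ethanol on chow (4.15% of all genes), 3 for HFD+1B against chow (16.3%), 3 for ethanol on HFD (19.3%) and 1 for HFD+1B against 1B (11.4%), the last a share near the background. A rule of at least 2-fold at an unadjusted p of 0.05 kept 2 member probes, those of Ulk1, for ethanol on chow (0.857% of all probes), for ethanol on HFD (1.74%) and for HFD+1B against chow (2.47%), and 0 for HFD against chow (1.6%), HFD+1B against 1B (1.52%) and the difference between diets (2%). The ranges of the 2 groups did not overlap for 7 of the 14 probes in 1B against chow (11% of all probes), 3 in HFD against chow (18.2%), 6 for HFD+1B compared with chow (14.4%), 4 for HFD+1B compared with HFD (14.4%) and 4 for HFD+1B compared with 1B (10.4%). The 3 in HFD against chow include the second Atg7 probe, well above background on 0 of 4 chow and 2 of 4 HFD arrays. This probe passed the filter on dim signals through HFD+1B, where 5 of 5 arrays read it, so its gap lies near the detection limit.

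**Figure D1:**
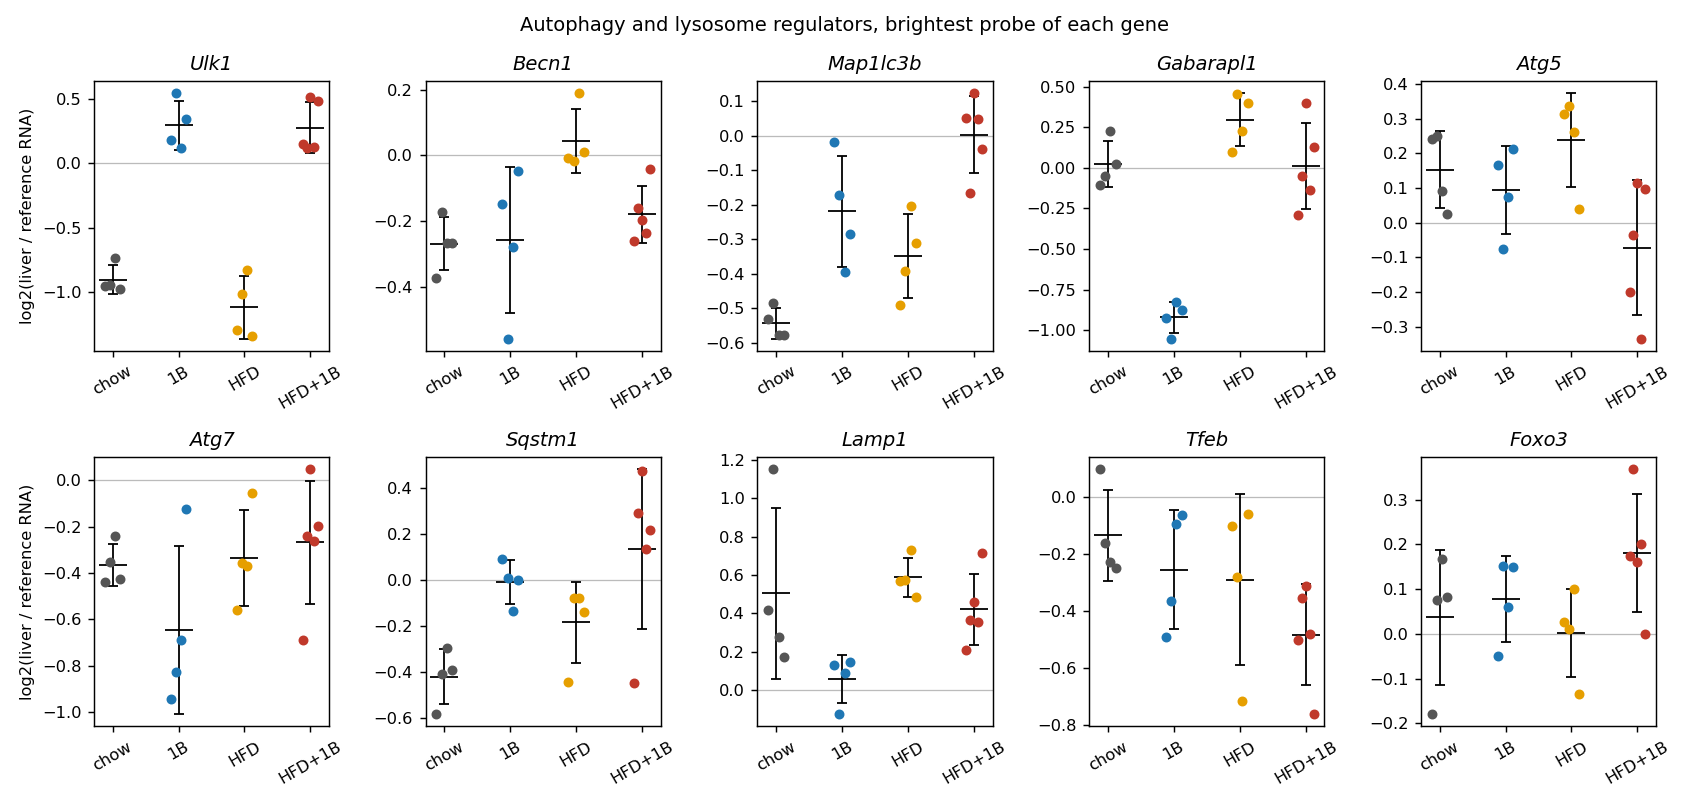
Log2 ratio of liver to reference RNA (vertical axis) in each mouse for the brightest probe of each of the 10 genes, by group (horizontal axis), with each point a mouse, the long bar the group mean and the whiskers 1 SD; vertical scales differ between panels. Ulk1 lies between 0.12 and 0.54 in every ethanol-treated mouse and at -0.74 or lower in every maltose-treated mouse, and Gabarapl1 is lowest in the 1B group.

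Ulk1, the kinase that starts autophagosome formation, was the member that moved most. Its brightest probe read -0.95, -0.94, -0.74 and -0.98 in chow and -1.30, -1.01, -0.83 and -1.34 in HFD. After ethanol it read 0.18, 0.54, 0.12 and 0.34 in 1B and 0.15, 0.12, 0.51, 0.12 and 0.48 in HFD+1B. All 9 ethanol-treated livers therefore lay above all 8 maltose-treated livers, and the ethanol groups overlapped each other. The log2 difference was 1.20 (SE 0.13, 2.30-fold, limma adjusted p = 5.1e-05) for 1B against chow and 1.40 (SE 0.13, 2.64-fold, adjusted p = 3.61e-06) for HFD+1B against HFD, and HFD+1B stood 1.18 (2.27-fold, adjusted p = 6.43e-06) above chow. Because these are whole livers, fewer cells of a type and less RNA per cell cannot be told apart, here and below.

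No diet comparison of Ulk1 passed the test. HFD differed from chow by -0.22 (95% CI -0.50 to 0.06, adjusted p = 0.32), which became -0.44 and passed (adjusted p = 0.0479) only with arrays centered on their medians. HFD+1B differed from 1B by -0.02 (95% CI -0.28 to 0.25, adjusted p = 0.965). The ethanol effect on HFD exceeded that on chow by 0.20 (95% CI -0.18 to 0.58, adjusted p = 0.595), and the interval reaches a difference between diets of 0.58. The second Ulk1 probe, which reads another stretch of the transcript, gave 1.27 (SE 0.15) on chow and 1.18 (SE 0.14) on HFD and tracked the first with r = 0.985 over the 17 arrays. Within slides, the first probe was higher after ethanol on all 3 slides that held 1B and chow (0.86 to 1.49) and on all 4 that held HFD+1B and HFD (1.35 to 1.49).

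Becn1, which encodes the Beclin 1 scaffold of the PI3-kinase complex, did not pass the test in any comparison. It read -0.37, -0.17, -0.27 and -0.27 in chow and -0.01, -0.02, 0.19 and 0.01 in HFD, and these groups did not overlap. The difference of 0.31 (SE 0.10) had an adjusted p of 0.0587 and stood beside the drop in ribosomal RNA probes of the same HFD livers, whose part in it was not tested. Ethanol differed from maltose by 0.01 (95% CI -0.20 to 0.23) on chow and by -0.22 (95% CI -0.43 to -0.02, adjusted p = 0.12) on HFD, where the HFD+1B livers, at -0.26, -0.16, -0.20, -0.24 and -0.04, also lay below every HFD liver. In the authors' own log2 ratios the rise with HFD was 0.50 (adjusted p = 0.0392) and the difference of HFD+1B from HFD was -0.44 (adjusted p = 0.0383). With arrays centered on their medians these became 0.13 (adjusted p = 0.581) and 0.03 (adjusted p = 0.891), so the sign of the second turned.

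The ATG8 family members split. Gabarapl1, whose product acts in autophagosome closure and cargo delivery, read -0.11, -0.05, 0.22 and 0.02 in chow and fell to -0.93, -1.05, -0.82 and -0.88 in 1B. These ranges stood far apart. The log2 difference of -0.94 (SE 0.13, 1.92-fold lower, adjusted p = 0.00034) was seen on all 3 slides shared by the groups (-1.05 to -0.82). Livers of HFD mice read 0.10, 0.46, 0.23 and 0.40, and those of HFD+1B mice read -0.29, -0.05, 0.40, -0.13 and 0.13, so the HFD groups overlapped. Their difference was -0.28 (SE 0.12, adjusted p = 0.119), and HFD+1B stood 0.93 (SE 0.12, adjusted p = 0.000134) above 1B.

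The difference between the ethanol effects on HFD and on chow, 0.66 for Gabarapl1 (SE 0.18, 95% CI 0.28 to 1.03), passed the test at an adjusted p of 0.0468, beside 4.02% of all probes. This call sat at the threshold and was lost in 20 of 25 alternative fits, where the adjusted p reached 0.268, although the value stayed between 0.56 and 0.78 in those 20. The second probe, in coding sequence, gave a log2 difference of -0.91 on chow (SE 0.16, adjusted p = 0.00244) over 3 chow and 4 1B arrays, since 1 chow spot was dropped as an outlier. Its difference between diets was 0.68 (SE 0.21, adjusted p = 0.073), and the 2 probes correlated at r = 0.865 over the arrays where both were read.

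**Figure D2:**
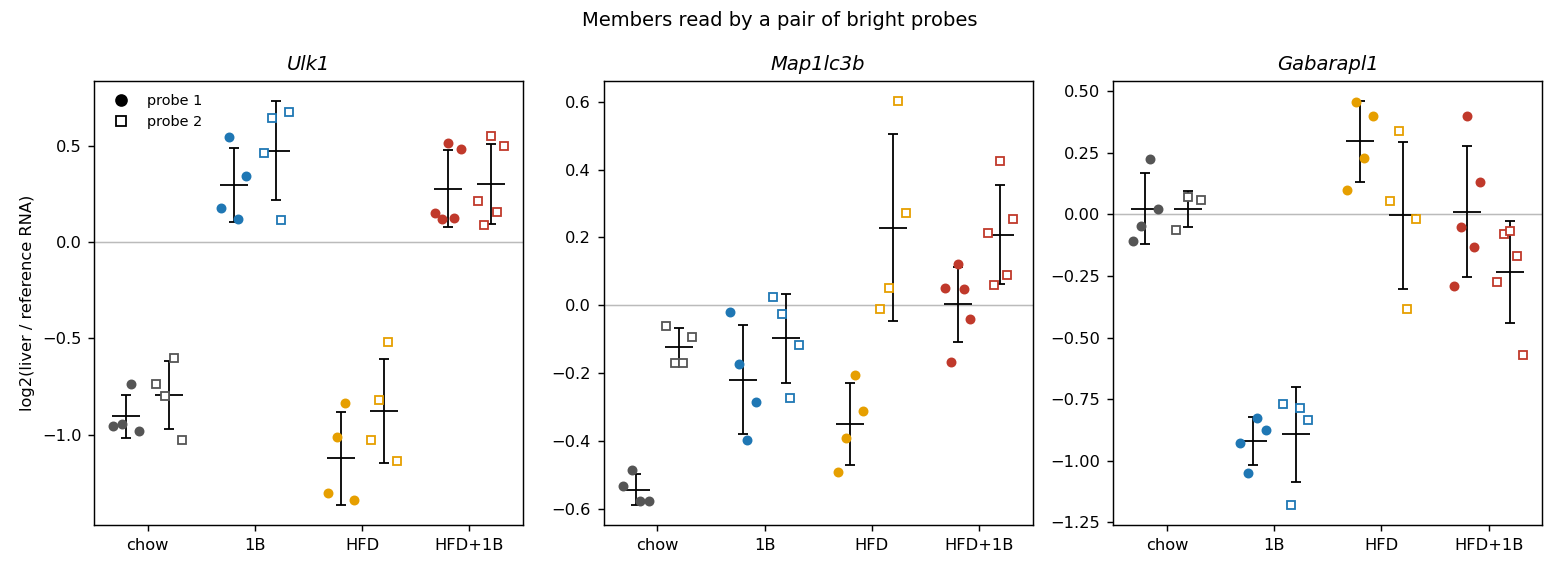
Log2 ratio of liver to reference RNA (vertical axis) in each mouse for both probes of Ulk1, Map1lc3b and Gabarapl1, by group (horizontal axis), with filled circles for probe 1, open squares for probe 2, long bars for means and whiskers for 1 SD. Both Ulk1 probes rise with ethanol on each diet and both Gabarapl1 probes fall on chow, whereas the Map1lc3b probes differ in where HFD lies.

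Map1lc3b, which encodes the LC3B protein used to mark autophagosomes, read -0.53, -0.49, -0.58 and -0.58 in chow. In HFD+1B it read 0.05, -0.17, 0.12, 0.05 and -0.04, above every chow and every HFD liver. The difference from chow was 0.55 (SE 0.09, 1.46-fold, adjusted p = 0.000397) and that from HFD was 0.35 (SE 0.09, 1.28-fold, adjusted p = 0.0114). The latter call was lost with the Cy5 signal alone (adjusted p = 0.071) and with the methods' Tukey test after Benjamini-Hochberg adjustment (adjusted p = 0.0535). Ethanol on chow gave 0.32 (SE 0.09, adjusted p = 0.0705), with the 1B livers at -0.02, -0.17, -0.40 and -0.29, all above chow, and without 1B mouse 3 it passed at 0.38 (adjusted p = 0.0429). The difference between diets in the ethanol effect was 0.03 (95% CI -0.25 to 0.30).

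The second Map1lc3b probe disagreed in part. It gave 0.33 (SE 0.11, adjusted p = 0.0606) for HFD+1B against chow, which passed with the slide as a block (0.34, adjusted p = 0.0333) and without HFD mouse 1 or 3, but -0.02 (95% CI -0.26 to 0.22) for HFD+1B against HFD and 0.35 (adjusted p = 0.0726) for HFD against chow, and it correlated with the first at r = 0.601. The ethanol effect on Map1lc3b thus rested on the brighter probe, which lies in coding sequence. Map1lc3a, its close paralog, also rose in HFD+1B against chow, by 0.56 (adjusted p = 0.00715), and binding of its transcripts by the Map1lc3b probe was not tested. Of the other 2 family members, Gabarap passed in no comparison (0.13 for HFD+1B against chow, adjusted p = 0.371), and Gabarapl2 rose in HFD+1B against HFD by 0.62 (adjusted p = 0.0229, 14 of 17 arrays), with a second probe at -0.27.

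Of the 2 members in the conjugation machinery, Atg5 passed in 1 comparison and Atg7 in 0. Atg5, whose product is joined to ATG12 and directs LC3 lipidation, read 0.31, 0.34, 0.26 and 0.04 in HFD. HFD+1B livers read -0.20, -0.04, 0.11, -0.33 and 0.10, and 1 HFD liver lay inside that range. The log2 difference of -0.31 (SE 0.10) passed at an adjusted p of 0.0484, and this was lost in 19 of 27 alternatives. The value shrank to -0.10 (adjusted p = 0.613) when arrays were centered on their medians in place of loess. Atg7, the E1-like enzyme of both conjugation reactions, differed from maltose by -0.28 (SE 0.17, adjusted p = 0.521) after ethanol on chow and by 0.07 (SE 0.16, adjusted p = 0.819) on HFD. On the 3 slides that held both, 1B differed from chow by -0.50 to -0.45. HFD+1B stood 0.38 (SE 0.16, adjusted p = 0.156) above 1B, and without the fourth 1B mouse, at -0.12 against -0.94 to -0.69 in the others, this was 0.55 (adjusted p = 0.02) and the difference of 1B from chow was -0.46 (adjusted p = 0.122). The second Atg7 probe was well above background on 8 of 17 arrays, with 0 of 4 in chow and 5 of 5 in HFD+1B. It correlated with the first at r = 0.291. For HFD against chow it gave 0.25 (adjusted p = 0.131), and 2.00 (adjusted p = 0.0202) in the authors' own log2 ratios.

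Sqstm1, encoding the cargo receptor p62, had a mean Cy5 signal of 11393, far from the detection limit. It read -0.58, -0.41, -0.29 and -0.39 in chow and 0.09, 0.01, -0.13 and 4.9e-05 in 1B, with no overlap, and this difference of 0.41 (SE 0.15) had an adjusted p of 0.177. HFD livers read -0.44, -0.08, -0.07 and -0.14. In HFD+1B, 4 livers read 0.29, 0.48, 0.14 and 0.22, above every HFD liver, and mouse 1 read -0.45, within the chow range. With this mouse, HFD+1B stood 0.55 (SE 0.14, 1.47-fold, adjusted p = 0.0121) above chow and 0.32 (SE 0.14, adjusted p = 0.132) above HFD. Without it, the difference from HFD was 0.46 (adjusted p = 0.00686), and that of 1B from chow, whose spread is estimated over all groups, passed at an adjusted p of 0.0331. HFD+1B mouse 1 shared a slide with chow mouse 1 and HFD mouse 1, each also the lowest of its group. The 1B liver on that slide, mouse 1, was the highest of its group, and the part of the slide was not tested. The call against chow was lost with median centering (0.47, adjusted p = 0.0763), with the Cy5 signal alone (0.51, adjusted p = 0.176) and with the methods' Tukey test after Benjamini-Hochberg adjustment (adjusted p = 0.129). Median centering raised the difference from HFD to 0.56 and it then passed (adjusted p = 0.0226). The difference between diets in the ethanol effect was -0.09 (95% CI -0.53 to 0.34).

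Lamp1, the lysosomal membrane glycoprotein with 4 CACGTG elements in its promoter window, read 0.42, 1.15, 0.28 and 0.17 in chow and 0.13, -0.13, 0.09 and 0.14 in 1B. Every 1B liver lay below every chow liver, and chow mouse 2 stood well above the rest. The difference was -0.45 (SE 0.16, adjusted p = 0.185), and within slides it ran from -1.28 to -0.19 over 3 slides. Without chow mouse 2 it was -0.23. HFD+1B exceeded 1B by 0.36 (SE 0.16, adjusted p = 0.17), a value that passed (adjusted p = 0.0335) when chow mouse 2 was left out of the fit.

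The transcription factors were not called. Tfeb read 0.10, -0.16, -0.23 and -0.25 in chow and -0.50, -0.35, -0.31, -0.48 and -0.76 in HFD+1B, without overlap. The difference of -0.35 (SE 0.14) had an adjusted p of 0.104, and of 0.0495 without HFD mouse 3. Ethanol differed from maltose in Tfeb by -0.12 (95% CI -0.42 to 0.18) on chow and by -0.19 (95% CI -0.48 to 0.10) on HFD. Foxo3 was near the detection limit, well above background on 14 of 17 arrays but on only 1 of 4 in HFD, and its differences lay between -0.04 and 0.18 in all 6 comparisons. In the authors' own log2 ratios they reached 1.3 for HFD+1B against chow (adjusted p = 0.105) and 1.14 against HFD, and were not called. TFEB and FOXO3 are controlled largely by phosphorylation and location in the cell, which arrays do not measure.

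**Figure D3:**
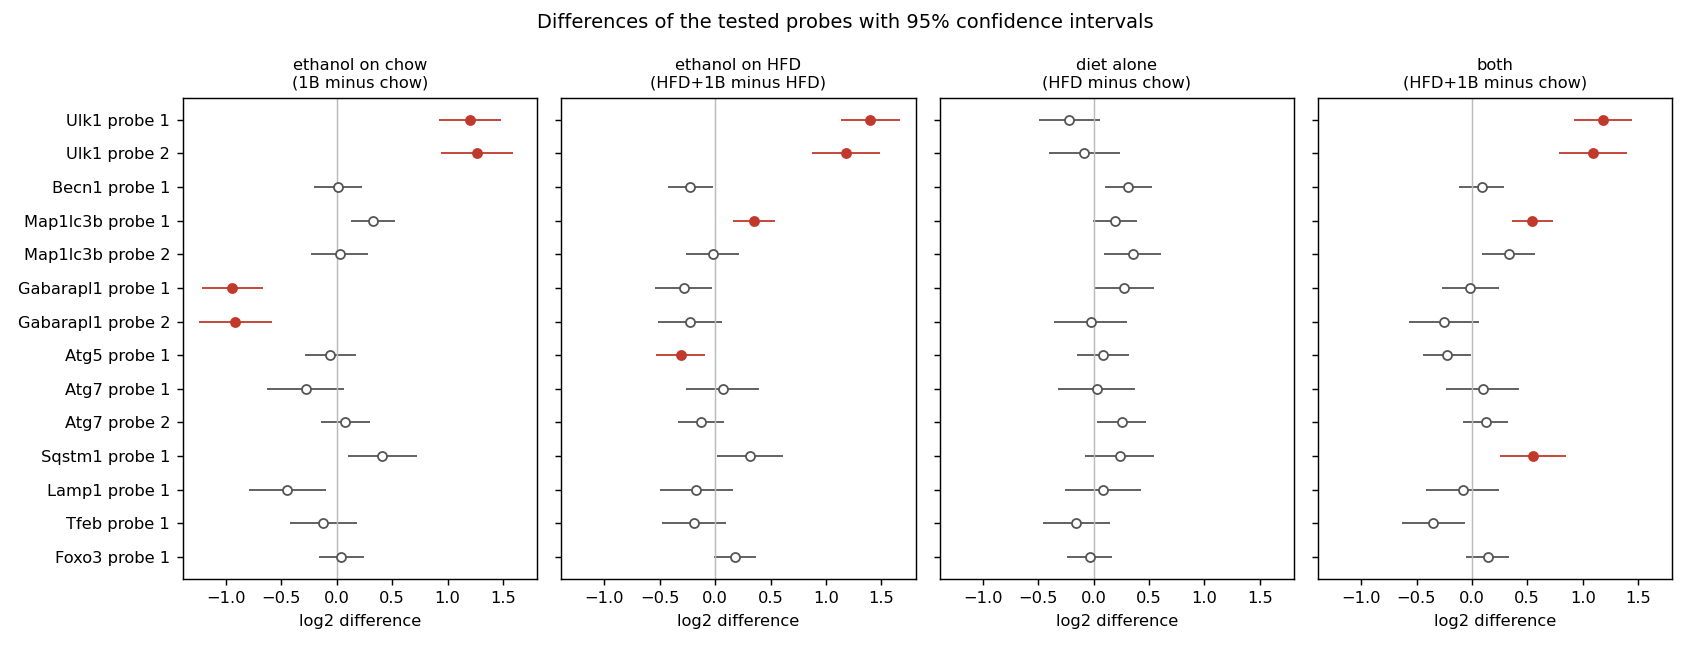
Log2 difference between groups (horizontal axis) with its 95% confidence interval for each of the 14 tested member probes (vertical axis), in 4 panels for ethanol on chow, ethanol on HFD, diet alone and both together; filled red points have an adjusted p of 0.05 or less. Only the Ulk1 probes are called in all 3 panels that involve ethanol, and no probe is called for diet alone.

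Over the 17 arrays, with groups pooled and as a description only, the genes whose brightest probe tracked Ulk1 most closely among 15369 were Frmd8, Lrrc28 and Slc25a22 (r = 0.931, 0.931 and 0.928). For Gabarapl1 they were Rdh16, Slc16a7 and Hdac11 (0.929, 0.927 and 0.926). For Map1lc3b they were Tacc2, Lcn2 and Alkbh2 (0.942, 0.938 and 0.934), and for Sqstm1 they were Ssfa2, Anapc16 and Cyb5r1 (0.889, 0.884 and 0.875). Among the members themselves, Ulk1, Map1lc3b and Sqstm1 tracked each other (r = 0.673 to 0.741), whereas Gabarapl1 went with Atg7 (0.658) and Lamp1 (0.646).

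The wider machinery was read through 152 genes in 12 lists, the members among them, of which 150 were tested. The lists were chosen with earlier results of these data known, so shares beside those of all genes are a description only. HFD+1B against chow called 26.7% of them, beside 16.3% of all genes, as 35 that rose (9.01% of all genes) and 5 that fell (7.28%). HFD alone called 18.7%, beside 10.9%, as 21 that rose (4.6%) and 7 that fell (6.28%). Ethanol on chow called 10%, beside 4.15%, as 8 that rose (2.14%) and 7 that fell (2.01%). Ethanol on HFD called 31.3%, beside 19.3%, as 29 that rose (10.8%) and 18 that fell (8.43%). HFD+1B against 1B gave 26 higher (6.26%) and 4 lower (5.11%), and the difference between diets gave 6 higher (2.53%) and 0 lower (1.73%), or 4% of the 150 beside 4.26% of all genes. The median log2 difference over the 150 genes was 0.08 in HFD+1B against chow and 0.03 in HFD+1B against HFD, beside 0.002 and 0.006 over all genes. The splits depended on the scaling: median centering gave 50 higher and 1 lower in HFD+1B against HFD, and turned HFD against chow to 2 higher and 9 lower. The 2 ethanol contrasts share no mice, and 10 of the 15 genes called on chow were called in the same direction on HFD (7 higher, 3 lower, 66.7% of the 15 and 21.3% of the 47 called on HFD), with 0 opposed. Over all genes, 46.1% of those called on chow and 9.94% of those called on HFD were shared in this way.

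**Figure D4:**
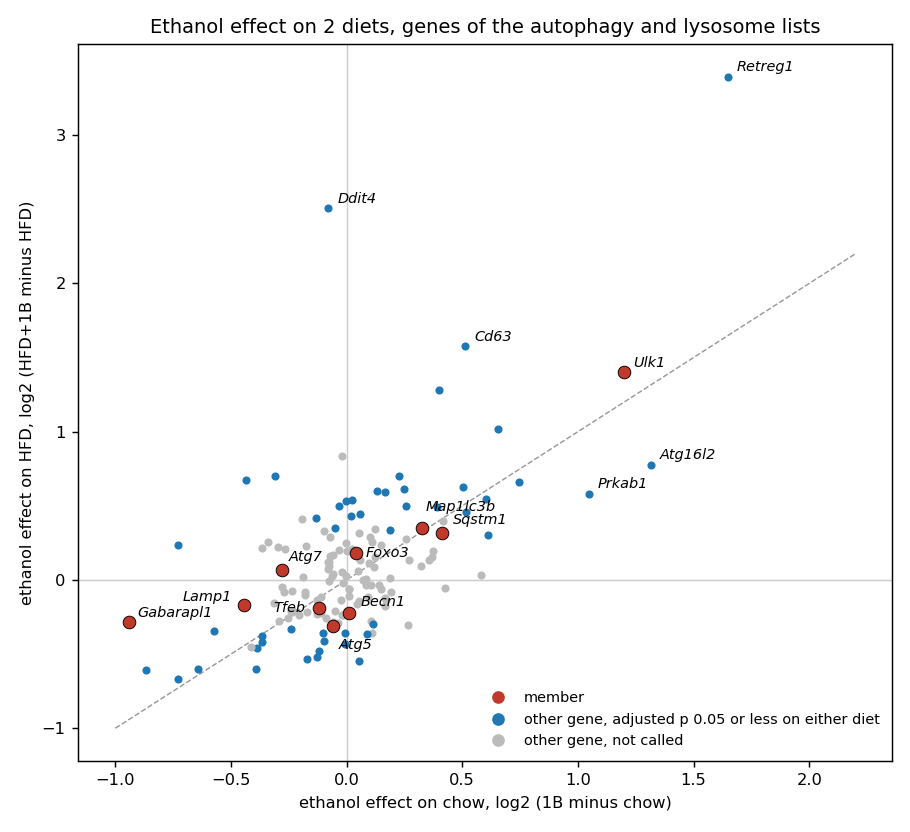
Ethanol effect on chow (horizontal axis, log2 difference of 1B from chow) against ethanol effect on HFD (vertical axis, log2 difference of HFD+1B from HFD) for 150 genes of the lists, with members in red, other genes called on either diet in blue, the rest in gray and a dashed line of equal effects. Ulk1 lies near the line at 1.20 and 1.40, Gabarapl1 lies at -0.94 and -0.28, and Retreg1, at 1.65 and 3.40, is the farthest from the origin. The Retreg1 value on HFD rests on 2 HFD and 3 HFD+1B livers.

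Retreg1, which encodes a receptor for autophagy of the endoplasmic reticulum (Fam134b in the array's annotation), rose most of the 150 genes in HFD+1B against chow and in both ethanol comparisons. Its second probe, read on every array, had mean log2 ratios of -1.98 ± 0.39 (SD, n = 4) in chow, -0.46 ± 0.49 (SD, n = 4) in 1B, -1.98 ± 0.19 (SD, n = 4) in HFD and 0.67 ± 0.36 (SD, n = 5) in HFD+1B. The brighter probe, with values on 11 of 17 arrays after outlier spots were removed, rose by 1.65 (adjusted p = 0.000368) with ethanol on chow and by 3.40 (adjusted p = 3.11e-06) on HFD. The rise on HFD rested on 2 HFD and 3 HFD+1B livers, and the second probe gave 2.65 there. The ethanol effect was larger on HFD by 1.75 (adjusted p = 0.00896) for the brighter probe and by 1.12 for the second, which did not pass. Vmp1, an endoplasmic reticulum protein needed for phagophore growth, rose by 1.48 (adjusted p = 8.51e-05) over chow and by 1.28 (adjusted p = 0.000515) over HFD, with 1 HFD+1B spot dropped. All 3 of its probes rose over chow, the smallest by 0.51. Over HFD, 2 of the 3 were called, and the smallest difference was 0.31.

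The other initiation and nucleation genes moved in both directions. Of the 5 genes of the ULK complex, Atg101 was lower in HFD+1B than in chow (-0.62, adjusted p = 0.000208) and lower with ethanol on chow too (-0.39, adjusted p = 0.0371). Rb1cc1 rose in HFD+1B against HFD by 0.41 (adjusted p = 0.0322), by a probe that was lower in HFD than in chow (-0.71, adjusted p = 0.00332). Its 6 probes lay between -0.34 and 0.41 against HFD and between -0.32 and -0.12 against chow, and Atg13 was called in no comparison. The brightest of 4 Ulk2 probes was called in none either, but 2 of the others were called in HFD+1B against chow and 2 against HFD, where the 4 probes ranged from -0.61 to -0.05 and from -0.63 to 0.12. Among 8 nucleation genes, Nrbf2 rose with ethanol on chow (0.61, adjusted p = 0.00457) and in HFD+1B against chow (0.73, adjusted p = 0.000157). Atg14 rose in HFD+1B against HFD by 0.67 (adjusted p = 0.000816) with a brighter probe that was also lower in HFD than in chow (-0.64, adjusted p = 0.00307), while its second probe gave 0.10. Uvrag rose by 0.49 (adjusted p = 0.00865, 16 of 17 arrays) in HFD+1B against HFD, with a second probe at 0.06, and Pik3c3, the catalytic subunit, fell there (-0.41, adjusted p = 0.0235). Among 7 tested genes of phagophore growth, Wipi1 rose with ethanol on both diets (0.60 on chow, adjusted p = 0.00809, and 0.55 on HFD, adjusted p = 0.00369).

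Of 11 conjugation genes, Atg16l2 rose with ethanol on chow by 1.32 (adjusted p = 0.00321) and on HFD by 0.78 (adjusted p = 0.0228), and Atg16l1 rose by 0.52 (adjusted p = 0.0459) and 0.46 (adjusted p = 0.0326) over 16 of 17 arrays, with a second probe at 0.04 and 0.08. Atg12, the partner of ATG5, rose in HFD+1B against chow by 0.57 (adjusted p = 0.00141), with 2 of its 3 probes called, and Atg3 fell against HFD (-0.54, adjusted p = 0.0333) by 1 of 3 probes. Among 7 transcriptional regulators, Tfe3, a relative of Tfeb, rose by 0.37 (adjusted p = 0.00695) over chow and 0.34 (adjusted p = 0.0124) over HFD, with 1 of its 3 probes called over chow and all 3 over HFD. Foxo4 rose over HFD by 0.35 (adjusted p = 0.0313), and was lower in HFD than in chow (-0.61, adjusted p = 0.00296). Zkscan3, a repressor of autophagy genes, fell in HFD+1B against HFD (-0.30, adjusted p = 0.0423). Mitf was called in no comparison, and of 2 Foxo1 probes the dimmer was called in HFD+1B against HFD (0.49) and against 1B (0.54).

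Of 21 nutrient signaling genes, 4 rose and 1 fell in HFD+1B against HFD, 23.8% of the list beside 19.3% of all genes, and 1 rose and 2 fell in 1B against chow, 14.3% beside 4.15%. Ddit4, an inhibitor of mTORC1 induced by stress and glucocorticoids, stayed between -2.47 and -0.94 in chow, 1B and HFD and reached -0.13 to 0.82 in HFD+1B. It rose by 2.51 (adjusted p = 3.65e-05) over HFD, against -0.08 (adjusted p = 0.961) for ethanol on chow, a difference between diets of 2.59 (adjusted p = 0.00375). Prkab1, a regulatory subunit of AMPK, rose with ethanol by 1.05 (adjusted p = 0.000137) on chow and 0.58 (adjusted p = 0.0035) on HFD. Sesn3, an upstream regulator of mTORC1 and AMPK, fell with ethanol on chow (-0.73, adjusted p = 7.73e-05) and on HFD (-0.67, adjusted p = 5.51e-05) by its brightest of 3 probes. The other 2 Sesn3 probes were not called.

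The genes of the hydrolase, v-ATPase and lysosomal membrane lists that were called in HFD+1B against chow were all higher. They were 32.4% of the hydrolases, 40% of the v-ATPase list and 16.7% of 12 lysosomal membrane genes, beside 16.3% of all genes. The share of the membrane list was thus near the background. HFD against chow called 26.5%, 33.3% and 25% of the 3 lists, beside 10.9% of all genes. Ethanol on chow called 8.82%, 0% and 0%, beside 4.15%. Of 34 tested hydrolases, 8 rose and 1 fell in HFD against chow (median 0.19), 11 rose and 0 fell in HFD+1B against chow (median 0.16, against 0.002 over all genes) and 1 rose and 2 fell with ethanol on chow. Legumain (Lgmn) rose by 0.85 (adjusted p = 0.00875) with HFD and 1.46 (adjusted p = 2.69e-05) in HFD+1B, arylsulfatase A (Arsa) by 1.50 (adjusted p = 6.87e-05) in HFD+1B, and cathepsin L (Ctsl) by 0.98 (adjusted p = 0.000585, 16 of 17 arrays) in HFD+1B. Of 15 subunits and partners of the v-ATPase, which acidifies the lysosome, 5 rose with HFD and 6 in HFD+1B against chow (medians 0.37 and 0.38), with 0 falling and 0 called for ethanol on chow. Atp6v0e rose by 0.99 (adjusted p = 0.000112, second probe 0.06) and Atp6v1g1 by 0.70 (adjusted p = 0.000248) in HFD+1B against chow. Cd63, a tetraspanin of late endosomes and lysosomes, rose by 1.13 (adjusted p = 0.0283) with HFD, by 2.70 (adjusted p = 8.05e-06) in HFD+1B against chow and by 1.58 (adjusted p = 0.00156) over HFD.

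The counts for HFD alone were not steady. Under median centering, 1 hydrolase and 0 v-ATPase genes were higher in HFD than in chow, and without HFD mouse 3 the counts were 4 and 1, whereas in HFD+1B against chow they were 9 and 7 under median centering and 11 and 8 without that mouse. Markers of other liver cells did not all move alike. The mean log2 ratio over 11 macrophage and Kupffer cell markers ran from -0.61 to 0.01 among chow livers, from -0.47 to -0.22 among 1B, from 0.21 to 0.33 among HFD and from -0.19 to 0.59 among HFD+1B, and 4 of the 11 were called higher in HFD and 3 in HFD+1B against chow. The group means over 7 stellate cell markers were -0.42, -0.30, 0.12 and 0.14 in the same order, with 2 and 4 called higher, and those over 7 hepatocyte markers were 0.14, 0.28, -0.26 and 0.56. Of all genes, 4.6% were called higher in HFD and 9.01% in HFD+1B against chow. The means over 11 neutrophil markers were 0.20, 0.18, 0.20 and 0.28 in that order. Those over 7 markers of sinusoidal endothelium were -0.47, -0.20, -0.10 and -0.12. The part of these cells, and of the low ribosomal RNA signal in HFD livers, in the lysosomal counts was not tested.

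**Figure D5:**
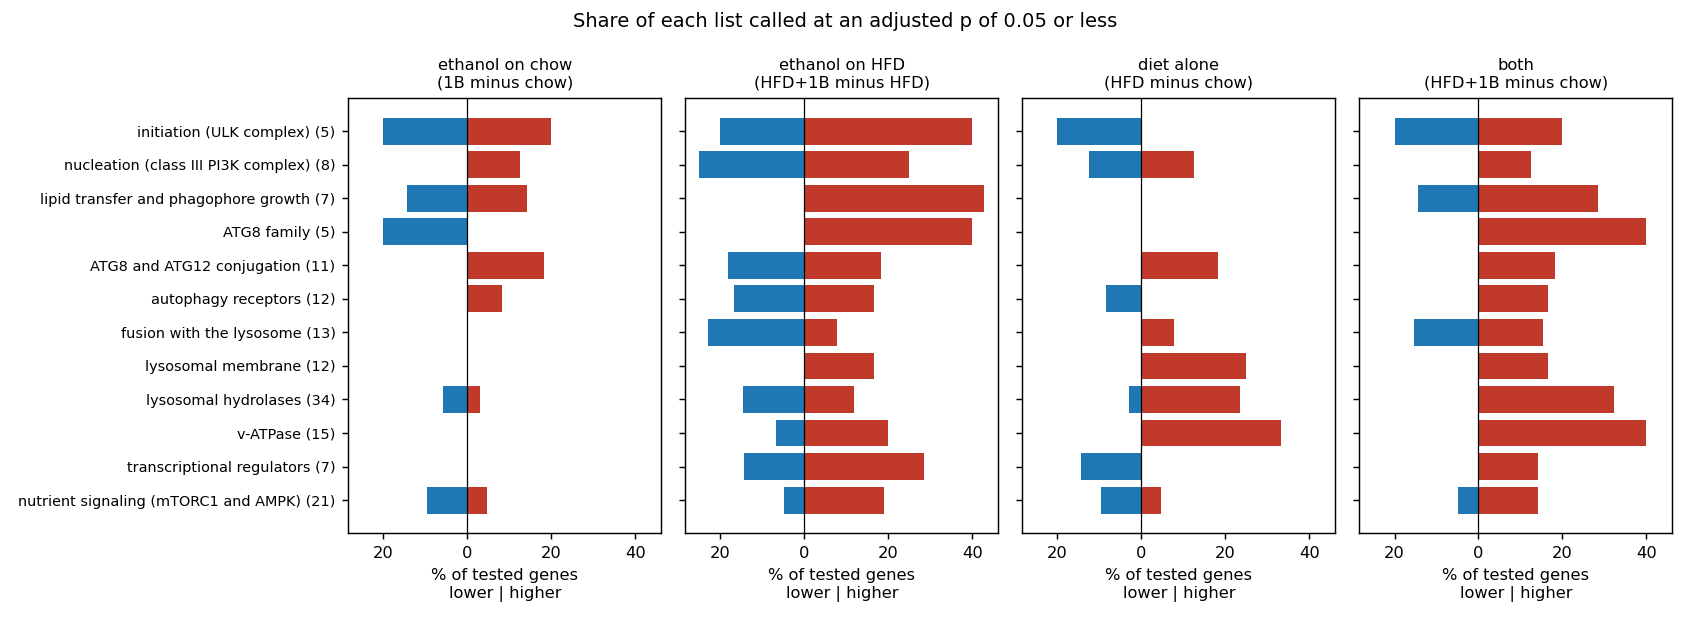
Share of each list's tested genes (number in brackets) that passed the test (horizontal axis, percent, red to the right for higher and blue to the left for lower), by list (vertical axis), in the same 4 comparisons. The v-ATPase and hydrolase lists have 6 of 15 and 11 of 34 genes higher with both diet and ethanol, and 0 and 1 higher with ethanol on chow.

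Sqstm1 is itself a known target of the antioxidant factor NRF2. Of 12 other NRF2 target genes, 4 rose and 4 fell in HFD+1B against chow, where 9.01% of all genes rose and 7.28% fell. Hmox1 rose by 0.89 (adjusted p = 0.00278) and Me1 by 0.98 (adjusted p = 0.0264), and Osgin1 and Gclm fell (-1.62, adjusted p = 0.00423, and -0.71, adjusted p = 0.00153).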

How the data were processed

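Liver RNA (Cy5) of 17 male mice was hybridized against a common reference RNA (Cy3), with no dye swap, on 2-colour Agilent mouse arrays. The labels describe the reference both as assorted mouse RNA and as liver. Spot intensity values were extracted by the authors with Agilent Feature Extraction 11.5.1.1, which the deposited scanner files hold. The authors also deposited a table of log2 ratios, which matched the scanner's processed signals to within 2.7e-06 and was used as an alternative. Values were read through the column names, and 0 columns were left over.

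Median spot intensities were corrected with normexp (offset 50) and normalized within arrays by loess (limma 3.58.1, R 4.3.3), with control spots at weight 0. Outlier-flagged spots were dropped, so that 3424 probe values were missing, and spots of a probe were averaged. A probe was tested if at least 4 arrays read it well above background in Cy5 and each group had a value. Group means were fitted by limma over all 17 arrays (13 residual degrees of freedom), with Benjamini-Hochberg adjustment over 34664 probes and calls at an adjusted p of 0.05. Genes were read by their brightest probe, and 95% confidence intervals are limma's. The scripts were tested on simulated data. Sequences came from the authors' deposited table of log2 ratios (probes) and from RefSeq (promoters), and figures were drawn with matplotlib 3.10.9 in Python 3.11.15.

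The members and lists were chosen with earlier results of these data known. All members are named, and per list at most the 2 genes with the largest rise and the 2 with the largest fall among those called in HFD+1B against chow or HFD, plus the genes of the ULK complex, the ATG8 family and the transcriptional regulators. Samples were treated as separate mice, so p-values cover the spread between these samples. The number of arrays limits the precision. Alternatives changed the background correction, normalization, filter, slide block, test and the samples used.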

Additional observations from a re-analysis of the deposited data

Results flagged for a closer look

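Of 55 groups of member values examined for a single stray sample, 4 were marked, where chance alone marks about 1 in 20 groups, or 2.75 here. Sqstm1 was lowest in HFD mouse 1, at -0.44 against -0.14 to -0.07 in the other HFD livers, a gap of 0.832 of the group's range. The Cy5 signal of this probe was also weakest on that array, at 2029 against 6907 to 12515 on the other HFD arrays. First probes of the other members, except Tfeb and Foxo3, were weakest there too, such as Ulk1 at 277 against 798 to 2026. Becn1 was highest in HFD mouse 3, at 0.19 against -0.02 to 0.01 (0.871 of the range). The second Gabarapl1 probe was lowest in 1B mouse 2, at -1.18 against -0.84 to -0.77 (0.843 of the range). The first Ulk1 probe was highest in chow mouse 3, at -0.74 against -0.98 to -0.94 (0.849 of the range).

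The ethanol effect on the first Gabarapl1 probe differed between the diets by 0.66 in the interaction term, from -0.94 on chow to -0.28 on HFD. The second probe gave 0.68 and did not pass the test.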

How the results depend on the processing

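No direction reversed among the called member values, and of the single values recomputed under the alternatives 2155 stayed on their side of the threshold, 46 lost the call and 27 gained it. Counts of member probes called moved by more than 1.5 times as follows, and the causes were not tested. With a 2-fold rule, 1B against chow gave 2 (4 in the analysis reported above), HFD+1B against chow 2 (4), HFD+1B against HFD 2 (4), HFD+1B against 1B 0 (2) and the difference between diets 0 (1). HFD against chow, at 0, gave 1 with median centering, 2 in the authors' table and 2 with the methods' Tukey test unadjusted. With the Cy5 signal alone HFD+1B against HFD gave 2, and with the Tukey test after adjustment it gave 2 and HFD+1B against 1B gave 1. The difference between diets gave 2 with median centering and 0 with no background correction, the authors' table, the Cy5 signal alone, no filter or the slide as a block. Leaving out 1 mouse at a time gave 4 to 5 for 1B against chow, 0 to 1 for HFD against chow, 4 to 6 for HFD+1B against chow, 3 to 5 for HFD+1B against HFD, 2 to 3 for HFD+1B against 1B and 0 to 2 for the difference between diets. The fit reported above took neither the replicate number nor the slide as a block, although arrays that shared either tended to deviate together. The deviations of same-numbered samples of different groups correlated at over 0.1 in 16 of 24 pairs (r = -0.126 to 0.48, median 0.178). The median was 0.195 for pairs on the same slide and -0.049 for pairs with different numbers. With the slide as a block the member probes called numbered 4, 0, 5, 3, 2 and 0, in the order of the comparisons above. With the replicate number as a block the counts were 4, 0, 4, 4, 2 and 1 in the order of the comparisons, unchanged, and all 84 single values kept their side.

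Median centering also moved the split over all probes, from 3406 higher and 2794 lower to 5687 and 906 in HFD+1B against HFD, and from 1370 and 2059 to 465 and 2663 in HFD against chow. For the pathway lists, alternatives chosen after seeing the data gave 14 higher and 2 lower with the Cy5 signal alone, and 25 and 9 without HFD mouse 3, in HFD+1B against HFD. In HFD against chow they gave 2 and 9 with median centering, 1 and 1 with the Cy5 signal alone and 8 and 3 without HFD mouse 3. Dim probes, such as those of Foxo3 and the second of Atg7, limit what could be read.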
